A study of Mus musculus with 96 samples.

Results

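The 31 genes described here carry out or control the making, storing and removal of cholesterol. They were taken from a list of named genes, with no measured value in the rule, and all 31 were found among the 21990 genes of the table, of which 20155 had values. RNA of islets and liver was sequenced from the same 48 male C57BL/6N mice, which were 4 weeks old when bought. They ate either a chow diet (CD, LabDiet 5001, 13.5% fat) or a high-fat diet (HFD, Research Diets D12492, 60% fat), and 4 mice per diet were sampled after 4, 8, 12, 16, 20 and 24 weeks, which gives 96 libraries. The diets are different products and were not matched in their other ingredients, so fat and the remaining ingredients cannot be told apart. Values are FPKM, fragments scaled to transcript length and to the library's total, which can be set side by side between genes because they are per length. Differences between groups are on the log2(FPKM + 1) scale, which understates the change of low genes, and are given with their SE. A gene was called at an adjusted p under 0.05 (limma, Benjamini-Hochberg over all genes tested).

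Cells make cholesterol from acetyl-CoA through mevalonate, squalene and lanosterol, and the liver supplies it to the rest of the body in lipoproteins and discards it in bile. The pathway answers to sterol: when sterol in the endoplasmic reticulum is low, Scap carries the transcription factor SREBP2, the product of Srebf2, to the Golgi for activation, and when sterol is high, Insig1 and Insig2 hold Scap back. Oxidised sterols activate the liver X receptors, which are known to induce the pumps Abca1, Abcg1, Abcg5 and Abcg8 and the ubiquitin ligase Mylip, which marks lipoprotein receptors for decay. The 31 genes comprise 19 enzymes of synthesis (2 of entry, 5 of the mevalonate branch, 3 that form squalene and lanosterol and 9 that convert lanosterol), 4 regulators, the sterol carrier Stard4, the esterifying enzymes Soat1 and Soat2, 4 efflux pumps and Mylip.

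The promoters are shown first because SREBP2 is known to act on genes of synthesis together with NF-Y, a factor that binds the CCAAT box. In the RefSeq promoter table (GRCm38.p6, 250 bases before to 50 after each start), 25 of the 31 genes had an entry, and Fdps, Fdft1, Sqle, Stard4, Soat2 and Abcg1 had none. The CCAAT box (CCAAT, both strands) was found for 22 of the 25 genes, and for 15 of the 16 enzymes with an entry, whereas 41.1% of all 27025 genes with an entry held it. The sterol regulatory element core (TCACNCCAC, both strands) was found in Hmgcs1 and in no other of the 25, against 1.44% of all genes. The E-box (CACGTG, the same on both strands) was found in 6 of the 25, against 8.09% of all genes. Such a match describes the letters of a window and is no evidence of binding. The 250 bases before the start are given for 5 genes on which the results turn, 5′ to 3′ on the gene's strand, with CCAAT boxes (also as the complement ATTGG) and the sterol regulatory element core in capitals.
Hmgcs1, chr13:119690101-119690350, plus strand: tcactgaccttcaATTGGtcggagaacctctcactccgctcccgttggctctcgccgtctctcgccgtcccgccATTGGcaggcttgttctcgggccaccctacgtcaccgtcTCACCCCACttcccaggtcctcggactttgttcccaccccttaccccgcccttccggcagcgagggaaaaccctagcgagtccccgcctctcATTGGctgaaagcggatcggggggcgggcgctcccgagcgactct
Mvk, chr5:114444019-114444268, plus strand: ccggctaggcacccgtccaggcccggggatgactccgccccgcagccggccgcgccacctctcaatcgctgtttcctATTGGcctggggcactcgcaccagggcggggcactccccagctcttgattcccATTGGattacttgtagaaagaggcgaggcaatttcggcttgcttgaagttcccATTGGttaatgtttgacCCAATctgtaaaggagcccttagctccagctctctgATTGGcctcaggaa
Cyp51, chr5:4104698-4104947, minus strand: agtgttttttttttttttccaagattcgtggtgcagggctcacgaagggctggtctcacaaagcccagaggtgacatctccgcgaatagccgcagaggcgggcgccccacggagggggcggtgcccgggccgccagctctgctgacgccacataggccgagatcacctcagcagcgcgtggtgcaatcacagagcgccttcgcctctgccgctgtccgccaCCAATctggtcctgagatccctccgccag
Nsdhl, chrX:72918271-72918520, plus strand: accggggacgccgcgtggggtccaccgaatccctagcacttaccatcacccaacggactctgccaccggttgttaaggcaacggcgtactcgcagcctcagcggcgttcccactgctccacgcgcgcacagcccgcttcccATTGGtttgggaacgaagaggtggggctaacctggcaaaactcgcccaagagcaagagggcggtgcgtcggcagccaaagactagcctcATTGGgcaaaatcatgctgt
Tm7sf2, chr19:6067851-6068100, minus strand: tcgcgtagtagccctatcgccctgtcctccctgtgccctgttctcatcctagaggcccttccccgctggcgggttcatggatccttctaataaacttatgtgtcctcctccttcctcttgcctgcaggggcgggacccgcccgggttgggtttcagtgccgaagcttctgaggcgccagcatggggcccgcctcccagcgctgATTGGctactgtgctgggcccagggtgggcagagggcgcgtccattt
The Hmgcs1 stretch holds the sterol regulatory element core between CCAAT boxes. The Mvk stretch holds 5 CCAAT boxes, and the Cyp51 and Tm7sf2 stretches hold 1 each.

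The labelled tissues carried their markers. The summed FPKM of 9 hepatocyte genes lay between 36998 and 79696 in liver and between 258 and 1074 in islets, and that of 9 beta cell genes between 576366 and 994221 in islets and between 32.8 and 3773 in liver. Islet libraries also held RNA of the exocrine pancreas, since 13 acinar genes summed to between 4316 and 162001. In bulk tissue, fewer cells of a type and less RNA per cell cannot be told apart. Read counts are not in the files, so the depth behind a value is unknown here, and the spread between the 4 mice of a group is the measure of error.

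Liver and islets of CD mice used the pathway at different levels. All 31 genes differed between the tissues (limma, mean over 6 weeks, 24 libraries each), 23 being higher in liver, where 28.5% of all genes tested were called higher, and 8 lower, where 66.5% were. Among the liver-enriched genes were the bile-side pumps Abcg5 (median 40.5 FPKM in liver and 0.055 in islets) and Abcg8 (30.4 against 0.055), and Soat2 (15.5 against 0.095), which esterifies cholesterol for lipoprotein export. Tm7sf2, the sterol C14 reductase, had a median of 76.3 FPKM in CD liver (35.7 to 117), while it was listed at 0 in 18 of 24 CD islet libraries and reached 2.31 FPKM in the highest. The islet-enriched genes were Sqle, Lss, Lbr, Srebf2, Soat1, Abca1, Abcg1 and Mylip. Squalene epoxidase, encoded by Sqle, had a median of 42.2 FPKM in islets (30.4 to 50.6) and 8.37 in liver (1.47 to 32.8). Abcg1, which passes cholesterol to HDL, had 12.3 FPKM in islets (9.88 to 14.9) and 0.765 in liver (0.32 to 1.13), ranges that lie far apart. Lbr, which encodes another sterol C14 reductase, had 7.76 FPKM in islets and 2.29 in liver. The median difference of all genes was -0.64, and -0.08 under median ratio scaling, which divides each library by the median of its gene-wise ratios to the others. Calls were lost for Lss under that scaling and for Insig1, Msmo1, Mvd, Pmvk and Scap when insulin was taken out of the islet totals. The direction was reversed for Lss and Mylip under that scaling, and for Msmo1, Pmvk and Scap without insulin, and was kept by the other genes. Whether reads of Acat2 and its near copy Acat3, of Abcg5 and Abcg8, which overlap on opposite strands, and of Fdft1 and its neighbours were told apart is not stated, so these levels are uncertain. The same holds for Tm7sf2, whose span lies within that of Vps51 on the same strand. Vps51 had medians of 6.9 FPKM in CD liver and 16.8 FPKM in CD islets.

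**Figure D1:**
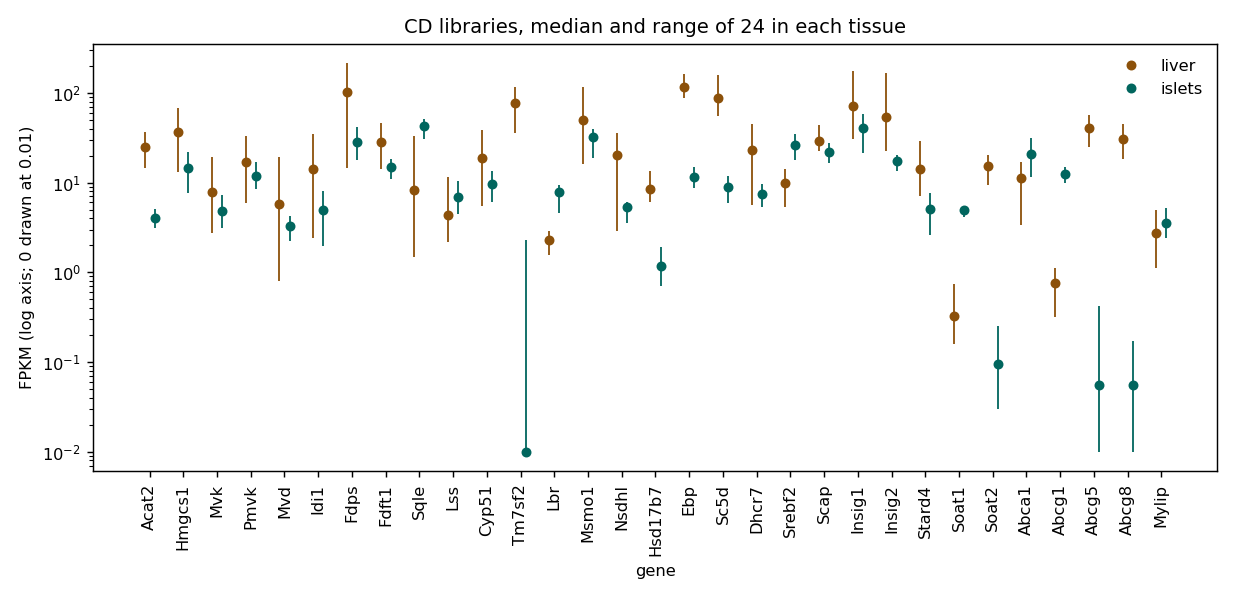
FPKM of the 31 genes in CD mice on a log axis, with liver in brown and islets in green; points are medians and lines the range of 24 libraries per tissue. Abcg5, Abcg8, Soat2 and Tm7sf2 stand higher in liver, and Sqle, Abcg1, Soat1, Lbr and Srebf2 in islets.

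In liver, Tm7sf2 was the member called at most weeks, 4 of 6, and was lower in HFD at each. At week 4 it was at 64.5, 115.2, 117.3 and 102.8 FPKM in CD and 112.03, 67.9, 83.8 and 70.2 FPKM in HFD, groups that overlapped, with a difference of -0.25 and an adjusted p of 0.632 (limma). At week 12 the values were 81.6, 59.4, 49.0 and 70.7 FPKM in CD and 42.7, 31.1, 28.7 and 31.7 FPKM in HFD. Every HFD library lay below every CD library by then, and the difference was -0.93 ± 0.17 (adjusted p = 0.0145, limma). At week 16 CD had 90.3, 45.5, 55.0 and 43.7 FPKM and HFD 20.8, 31.7, 23.6 and 18.7 FPKM (-1.24 ± 0.24, adjusted p = 0.0176, limma). At week 20 CD had 82.0, 98.8, 76.2 and 105.8 FPKM and HFD 26.4, 18.9, 15.2 and 27.9 FPKM (-2.02 ± 0.19, adjusted p = 0.00184, limma). At week 24 CD had 88.3, 65.1, 35.7 and 83.4 FPKM and HFD 15.9, 11.4, 13.2 and 28.0 FPKM (-1.93 ± 0.33, adjusted p = 0.0334, limma). The groups did not overlap at weeks 12, 16, 20 and 24. Leaving out 1 mouse at a time kept the call in 7 of 8 fits at week 12 (lost without CD308), in 6 of 8 at week 16 (lost without HFD416 or HFD418) and in 8 of 8 at week 20. At week 24 it was kept in 2 of 8, namely without CD606 or HFD617, and the highest adjusted p was 0.126 (limma). The HFD medians went down from 77.0 FPKM at week 4 to 14.5 FPKM at week 24.

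Averaged over the 6 weeks, Tm7sf2 was lower in HFD liver by 1.17 on the log2 scale (-1.17 ± 0.12, adjusted p = 3.02e-10, limma). The effect differed between the weeks (F test, adjusted p = 0.0285, limma), which was called for 1 of the 30 members tested and 1.46% of all genes, and this call was lost without HFD112 or HFD114 of week 4 (highest adjusted p 0.0583, limma). The span of Tm7sf2 (chr19:6062821-6067850 in GRCm38.p6, minus strand) lies whole within that of Vps51 on the same strand, and how reads were split between them is not stated. Vps51, which encodes a subunit of a vesicle tethering complex, had medians of 6.9 FPKM in CD and 7.36 FPKM in HFD liver and a mean difference of 0.11 ± 0.04 (adjusted p = 0.0218, limma), opposite in sign to that of Tm7sf2.

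At week 20, 8 synthesis enzymes fell in HFD liver. They were Mvk, Pmvk, Mvd and Fdps of the mevalonate branch, and Cyp51, Tm7sf2, Nsdhl and Dhcr7, which convert lanosterol. These are 8 of 30 members tested, where 0.746% of all genes tested were called lower, and the median difference of the 19 enzymes was -1.14 against 0.07 for all genes. All 19 enzymes had a negative difference at week 20 (-0.20 to -2.73), and in 11 of the 19 every HFD library lay below every CD library, as 2.51% of all genes tested did. The hepatocyte sum at week 20 ran from 54198 to 79696 FPKM among CD mice and from 36998 to 66024 FPKM among HFD mice. The macrophage sum of 12 genes ran from 122 to 149 FPKM (CD) and from 182 to 327 FPKM (HFD). Of the circadian clock genes, Dbp ranged from 16.9 to 88.2 FPKM in CD and from 16.3 to 89.4 FPKM in HFD at week 20, and Nr1d1 from 29.0 to 48.4 FPKM in CD and from 3.82 to 51.0 FPKM in HFD. At week 12 Per1 ranged from 9.19 to 17.4 FPKM in CD and from 3.42 to 8.93 FPKM in HFD, without overlap, and at week 24 Dbp had medians of 21.9 FPKM in CD and 54.2 FPKM in HFD. Of the 13 clock genes, 5 were higher and 8 lower in HFD group means at week 12. The split was 6 higher and 7 lower at week 20, and 8 higher and 5 lower at week 24. The part of these markers and clock genes in the enzyme differences was not tested.

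Pmvk, the kinase that acts after mevalonate kinase, was at 20.4, 27.3, 24.4 and 23.6 FPKM in CD and 11.51, 7.77, 11.04 and 11 FPKM in HFD at week 20 (-1.14 ± 0.14, adjusted p = 0.00498, limma). Fdps, which makes farnesyl diphosphate, the branch point to sterols and to prenyl groups, was at 170.7, 212.9, 179.8 and 150.0 FPKM in CD and 100.6, 27.3, 39.7 and 36.8 FPKM in HFD (-1.96 ± 0.35, adjusted p = 0.0316, limma). Cyp51, the lanosterol demethylase, was at 27.3, 31.1, 38.6 and 31.6 FPKM in CD and 18.3, 5.14, 7.37 and 5.98 FPKM in HFD (-1.85 ± 0.33, adjusted p = 0.0268, limma). In each of these genes the CD and HFD libraries did not overlap, and for Fdps and Cyp51 the highest HFD value was that of mouse HFD511. Nsdhl, a sterol dehydrogenase that takes part in removing methyl groups, was at 22.0, 25.3, 30.3 and 26.1 FPKM in CD and 13.9, 4.57, 5.56 and 4.35 FPKM in HFD (-1.86 ± 0.30, adjusted p = 0.0196, limma). It was lower again at week 24, with 10.6, 20.8, 15.3 and 20.9 FPKM in CD and 4.09, 7.79, 4.37 and 4.18 FPKM in HFD (-1.54 ± 0.24, adjusted p = 0.0212, limma). Nsdhl and Tm7sf2 were the 2 members called at week 24, both lower, where 0.187% of all genes were, and the call of Nsdhl was kept in 3 of 8 fits that left out 1 mouse.

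Other enzymes had large differences at week 20 that did not pass. Sqle was at 22.0, 32.8, 22.3 and 24.6 FPKM in CD and 12.9, 1.2, 2.34 and 1.33 FPKM in HFD, a difference of -2.73 ± 0.56 with an adjusted p of 0.054 (limma). Idi1, which isomerises isopentenyl diphosphate, had a difference of -2.36 (adjusted p = 0.0613, limma) and Msmo1, the methylsterol oxidase, of -1.998 (adjusted p = 0.065, limma). The regulator Insig1, itself a known SREBP2 target, was at 114.4, 173.9, 107.2 and 84.4 FPKM in CD and 94.8, 34.9, 32.9 and 29.2 FPKM in HFD (-1.43, adjusted p = 0.0974, limma). HFD511 had the highest HFD value of both genes, within the CD range for Insig1 and below it for Sqle, and the other 3 HFD mice were lower still. Stard4, which carries sterol between membranes, ranged from 17.1 to 21.3 FPKM in CD and from 5.47 to 15.5 FPKM in HFD (-1.08 ± 0.25, adjusted p = 0.0554, limma), and Srebf2 had a difference of -0.38 (adjusted p = 0.409, limma). Without HFD511, 17 members were called at week 20, the 8 among them, whereas leaving out CD501, CD502, CD505, CD507, HFD516 or HFD517 left 2 to 4. Pmvk and Tm7sf2 were called in all 8 of these fits. How many of all genes were called in these fits is not given here. Under median ratio scaling 14 members were called, all lower, where 289 of all 10184 genes were called, 185 of them higher. With all 12 liver groups in a single fit 16 were called, 15 of them lower. That fit called 1004 of all 10879 genes, 808 of them higher.

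**Figure D2:**
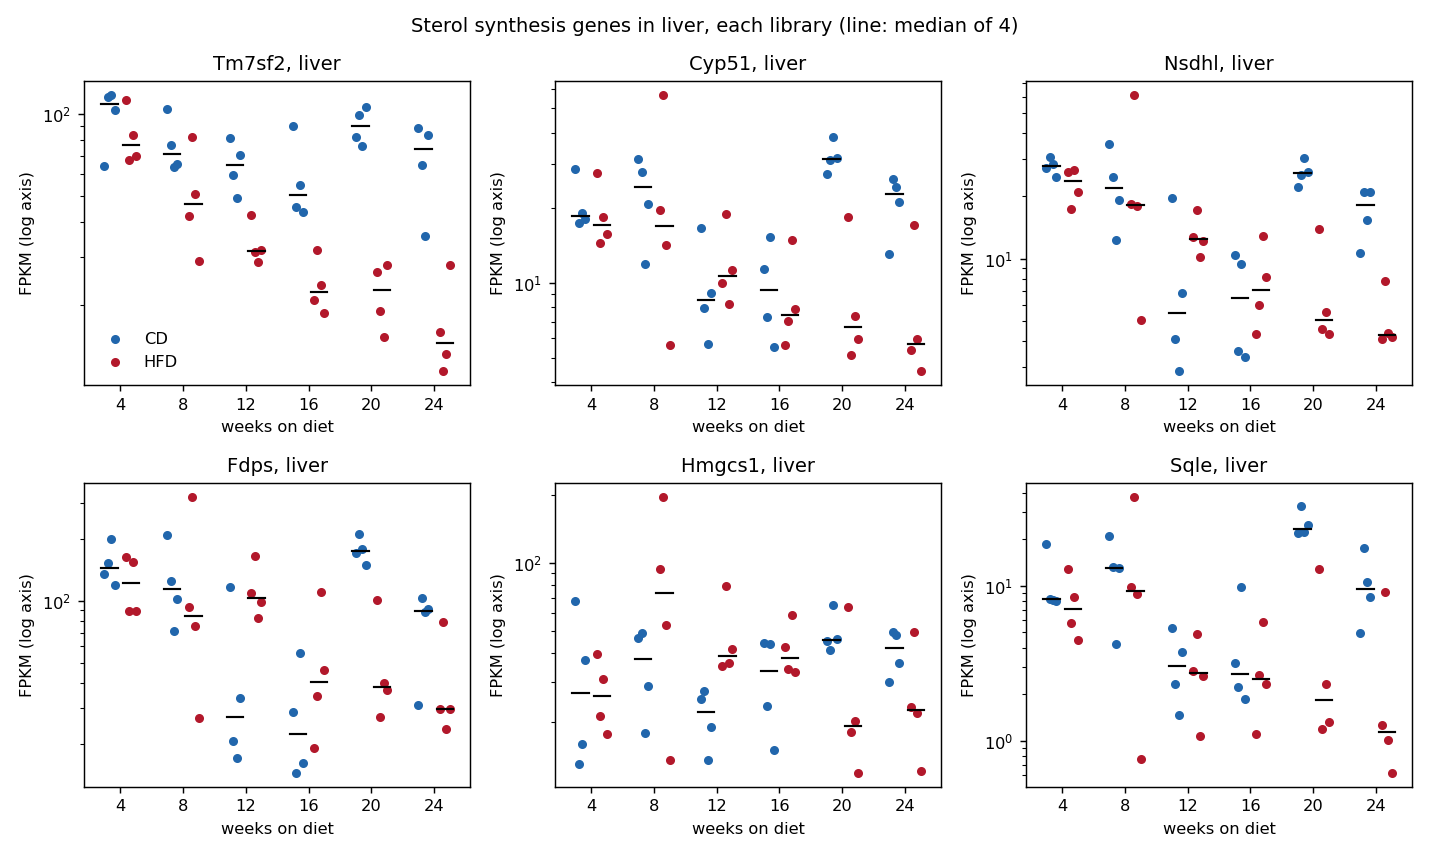
FPKM of 6 synthesis genes in liver by week on a log axis; each point is 1 library, CD in blue and HFD in red, and lines are medians of 4. Tm7sf2 separates by diet from week 12 on, Cyp51, Nsdhl, Fdps and Sqle have low CD medians at weeks 12 and 16, and all 6 genes have HFD medians below CD at weeks 20 and 24.

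At the earlier weeks the picture in liver was different. At weeks 4 and 8 none of 29 members tested was called by limma (2 of 29 had an unadjusted p under 0.05 at each week), where 0.0506% and 7.49% of all genes were called, and no other tool was run. At week 12, 3 of 30 members were called higher in HFD, where 9.42% of all genes were, but 1 of them, Abcg1, passed the filter through the HFD libraries alone. Hmgcs1 and Insig2 were the other 2, and Tm7sf2 was the 1 member called lower, where 1.22% were. Hmgcs1, which makes HMG-CoA, was at 25.1, 27.2, 13.5 and 18.9 FPKM in CD and 35.2, 79.5, 36.4 and 41.8 FPKM in HFD, without overlap (1.11 ± 0.29, adjusted p = 0.0466, limma). Insig2 was at 35.4, 73.8, 32.2 and 47.0 FPKM in CD and 66.1, 161.6, 116.3 and 114.5 FPKM in HFD, and CD306 lay above the lowest HFD library (1.27 ± 0.32, adjusted p = 0.0409, limma). Fdps had the largest difference of the enzymes, 1.64, with 117, 20.8, 17.1 and 33.5 FPKM in CD and 109, 166, 82.1 and 98.3 FPKM in HFD, but CD304 lay among the HFD libraries and the adjusted p was 0.109 (limma). Without CD304, 14 members were called at week 12, and leaving out CD306, CD307, CD308, HFD313, HFD315 or HFD318 left 0 to 2, the 0 being without CD308. For these fits, too, the number of all genes called is not given here. Hmgcs1 and Insig2 lost their calls with no filter and with all 12 liver groups in a single fit, and Insig2 also under median ratio scaling. The single fit newly called Dhcr7, Fdps and Sc5d. It called 5 members at week 12, 4 of them higher, where 1626 of all 10879 genes were called, 1457 of them higher. The median of all genes was itself 0.11 at week 12 and -0.02 after median ratio scaling, under which Insig2 was not called. At week 16, Tm7sf2 was the 1 member of 29 called, and lower, where 0.682% of all genes were.

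Enzyme levels in CD liver themselves differed between weeks, as did the levels of 55% of all genes. The median of Fdps in CD liver was 144.1, 113.99, 27.1, 22.6, 175.2 and 89.4 FPKM from week 4 to week 24. In HFD liver it was 121.99, 84.5, 103.6, 40.2, 38.3 and 29.7 FPKM in the same order. So the week 12 difference came with low CD values and the week 20 difference with high CD and low HFD values. Cyp51 was likewise lowest in CD liver at weeks 12 and 16 and highest at week 20, with medians of 18.6, 24.2, 8.54, 9.34, 31.3 and 22.7 FPKM over the weeks. Of the 30 members tested, 19 differed between the CD weeks in liver (F test, limma), a share of 63.3% where 55% of all genes did. Tm7sf2 was not among them (adjusted p = 0.095, limma). Week on diet, age and day of sampling cannot be told apart here. Apart from Tm7sf2, no member's diet effect was called as different between weeks in liver, although Nsdhl and Fdps were called under median ratio scaling, and Nsdhl also with a pseudocount of 0.1 or without trend and robust variances.

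The synthesis enzymes moved together from mouse to mouse. With group means subtracted, the correlation of an enzyme with the mean of the other 18 across the 48 liver libraries had a median r of 0.89 and was highest for Cyp51 (0.97), Sqle (0.95) and Idi1 (0.95). It was lowest for Tm7sf2 (0.35), Ebp (0.39) and Lbr (0.56). Of the regulators, Srebf2 (0.86) and Insig1 (0.85) went with the enzymes, whereas Scap (0.0031) and Insig2 (0.32) did so little. The pumps Abcg5 (-0.40) and Abcg8 (-0.36) had negative values. These correlations are descriptions over libraries that share a scale. The mean log2(FPKM + 1) of the 19 enzymes lay between 4.89 and 5.16 in the 4 CD livers of week 20 and at 3.35, 3.40 and 3.56 in 3 HFD livers, with HFD511 at 4.53. At week 8 the HFD livers ranged from 3.27 in HFD217 to 5.78 in HFD212, and their SD of 1.03 was the largest of the 12 liver groups (the next was 0.56). Genes outside the lists that went most closely with the enzyme mean in liver included Gm38481 (r = 0.94), Pstpip2 (0.83), 0610007P14Rik (0.83), the cobalamin enzyme gene Mmab (0.82), Acsl3 (0.74), which activates fatty acids, and the fatty acid elongase gene Elovl5 (0.72), each over 48 libraries.

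**Figure D3:**
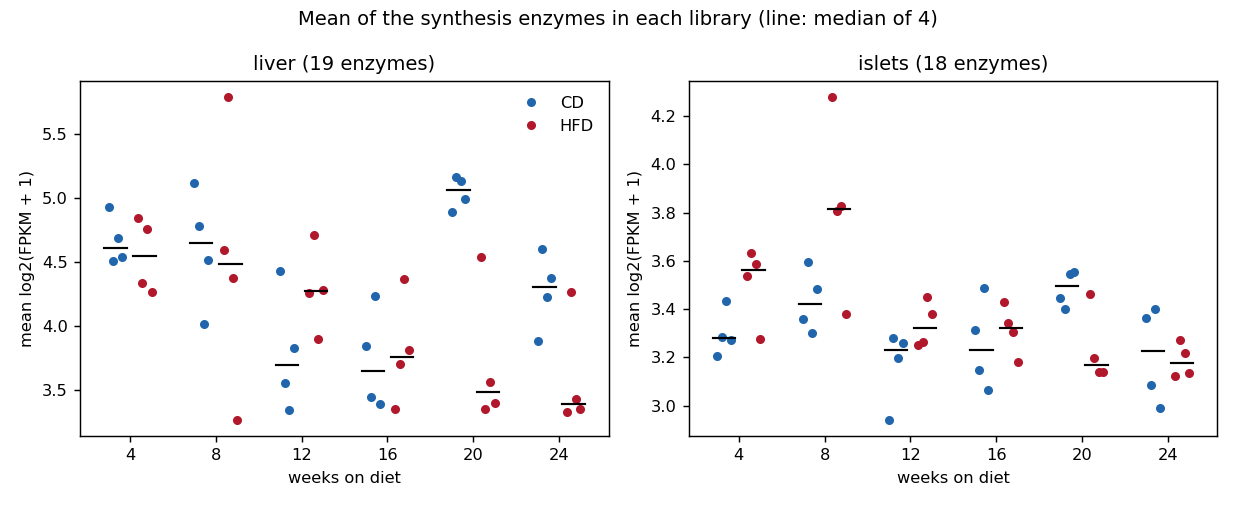
Mean log2(FPKM + 1) of the synthesis enzymes in each library by week, with 19 enzymes in liver and 18 in islets, where Tm7sf2 was mostly at 0; CD is blue, HFD red, and lines are medians of 4. In liver at week 20 all 4 CD libraries lie above all 4 HFD libraries, and HFD217 is the lowest of the 4 HFD libraries of week 8 in both tissues.

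Averaged over the 6 weeks, 8 of 30 members were lower in HFD liver, where 6.78% of all genes tested were called lower, and 2 were higher, where 35.8% were. The lower ones were Tm7sf2, Sqle (-0.97 ± 0.26, adjusted p = 0.00289, limma), Cyp51 (-0.58), Nsdhl (-0.47), Stard4 (-0.35), Pmvk (-0.32), Scap (-0.18) and Lbr (-0.17). The median difference of the 30 members was -0.13 against 0.08 for all genes. Sqle and Cyp51 kept their call whichever mouse was left out, and Nsdhl and Pmvk did in 21 and 38 of 48 fits. Scap and Lbr, though small in difference, held in all 48. Fdps, Mvk, Mvd, Dhcr7 and Hmgcs1 did not pass over the 6 weeks (differences from -0.22 to 0.10), with opposite signs at weeks 12 and 20. Under median ratio scaling 13 members were lower and 1, Abcg1, was higher. Of all 10879 genes, 4275 were then called, 1943 of them higher.

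The pumps that were higher in HFD liver were Abca1 and Abcg1. Abca1, which loads cholesterol onto apolipoprotein A-I, had medians of 11.2 FPKM in CD (3.37 to 16.8) and 12.8 FPKM in HFD (5.75 to 20.6), with overlapping ranges and a mean difference of 0.31 ± 0.09 (adjusted p = 0.00529, limma), which was 0.20 and not called after median ratio scaling (adjusted p = 0.0519, limma). Abcg1 had medians of 0.765 FPKM in CD and 1.26 FPKM in HFD and a mean difference of 0.35 ± 0.06 (adjusted p = 1.09e-05, limma). At week 12 Abcg1 was at 0.72, 0.81, 0.61 and 0.68 FPKM in CD and 1.33, 1.98, 1.07 and 1.27 FPKM in HFD, without overlap (a difference of 0.49). It passed the filter of 1 FPKM there through the HFD libraries alone, where it was high, so its call at that week is no support for a difference. Soat1 stayed under the filter in liver at every week, with medians of 0.33 FPKM in CD and 0.55 FPKM in HFD. Abcg1 and Soat1 are known to be strongly expressed in macrophages. The 12 macrophage genes summed to between 57.1 and 182 FPKM in CD liver and between 67.9 and 327 FPKM in HFD liver, and all 12 were higher in HFD at weeks 12, 16 and 20 in the group means, while 5 of 12 were at week 8. Itgam and Gpnmb of this list were under 1 FPKM in most liver libraries. The sum of 8 stellate cell genes had medians of 13.7 FPKM in CD and 36.0 FPKM in HFD, without overlap at week 12 (6.73 to 18.8 against 23.8 to 44.9 FPKM) and week 16 (10.8 to 12.4 against 31.6 to 41.3 FPKM), and Acta2 of this list was under 1 FPKM in most liver libraries. The part of both lists in the results of Abcg1, Abca1 and Soat1 was not tested. Abcg5, Abcg8, Soat2 and Mylip had mean differences between -0.03 and 0.13 in liver and were not called.

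**Figure D4:**
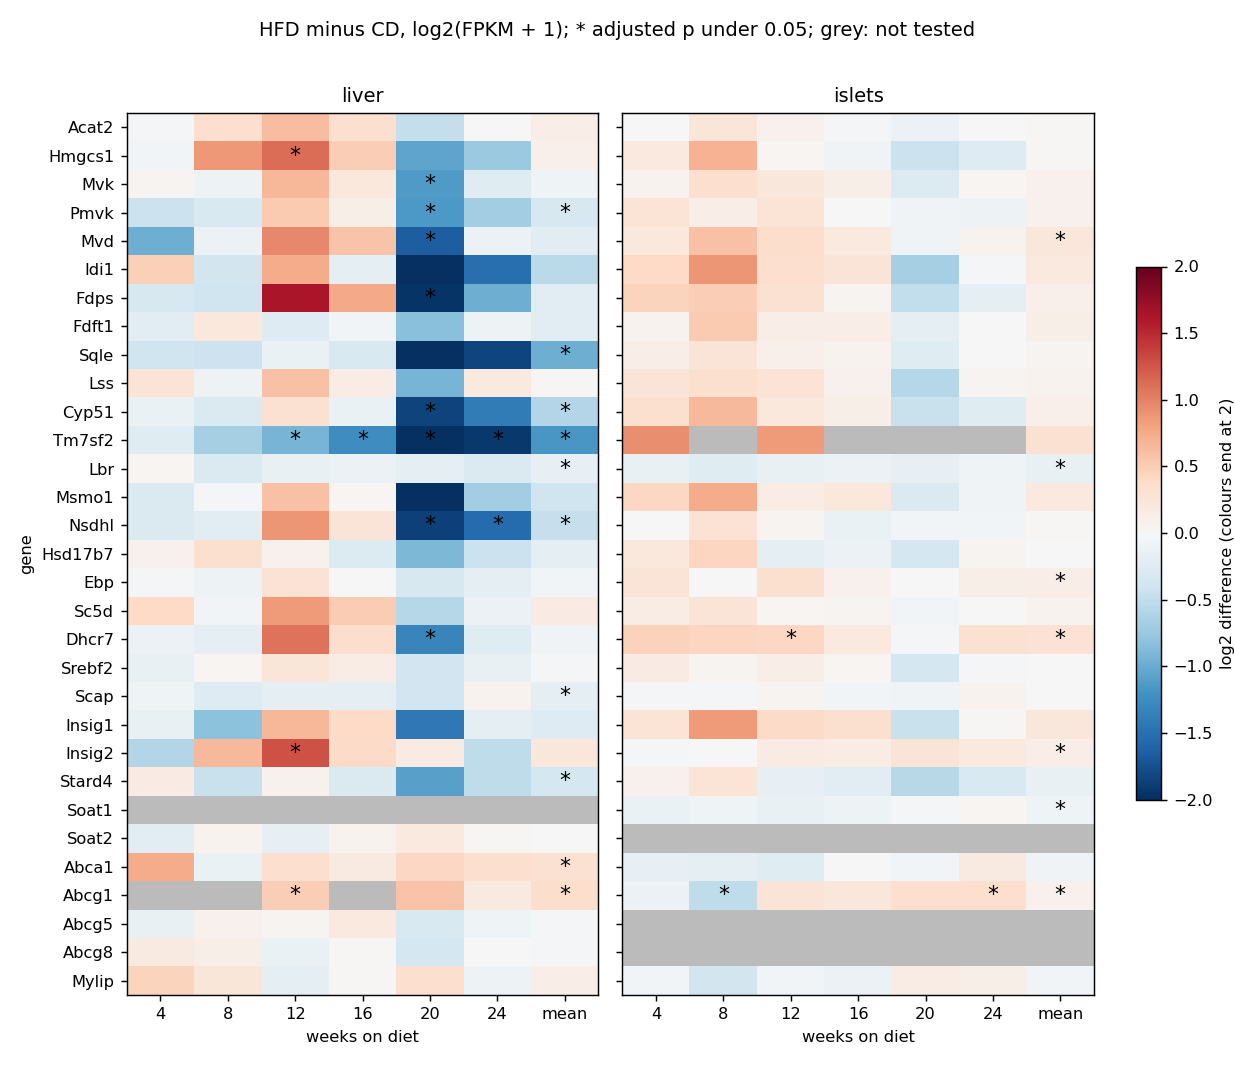
Difference of HFD minus CD in log2(FPKM + 1) for the 31 genes by week and as the mean over 6 weeks, in liver and islets; red is higher and blue lower in HFD, colours end at 2, stars mark adjusted p under 0.05 and grey means not tested. In liver the enzymes are blue at week 20 and Tm7sf2 is blue at every week, and in islets most enzymes are pale red at weeks 4, 8 and 12.

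In islets the differences between diets were smaller in range, from -0.67 to 0.92 over the 6 weeks against -2.73 to 1.64 in liver. The islet range and the signs below include Tm7sf2 at weeks 4 and 12, where all 19 enzymes were tested. Tm7sf2 reached 1 FPKM in 3 CD and 8 HFD islet libraries and passed the filter only through HFD. Its islet values are therefore a description and no support for a difference. No member was called at week 4 (28 tested, 6 with an unadjusted p under 0.05, 0% of all genes called by limma), week 16 (27 tested, 3 with an unadjusted p under 0.05, 8.45% of all genes) or week 20 (27 tested, 13 with an unadjusted p under 0.05, 4.74% of all genes), and no other tool was run. Of the enzymes tested, 17 of 19, 17 of 18, 17 of 19, 12 of 18, 0 of 18 and 9 of 18 had a positive difference from week 4 to week 24. The signs were not tested, and the enzymes covaried between mice in islets (median r 0.81), so they are not independent. At week 8 Insig1 was at 46.0, 46.0, 47.2 and 49.8 FPKM in CD and 134, 83.5, 98.2 and 49.1 FPKM in HFD (0.85, adjusted p = 0.111, limma). Hmgcs1 was at 14.6, 16.4, 14.8 and 18.1 FPKM in CD and 44.1, 26.0, 27.9 and 14.95 FPKM in HFD (0.70, adjusted p = 0.176, limma). In Hmgcs1 and Insig1 alike HFD217 was level with the CD mice and the other 3 HFD mice were above them. Without HFD217, 16 members were called at week 8, among them Cyp51, Hmgcs1, Idi1, Insig1 and Sqle, in place of 1, and Lbr, lower, among them. At week 20 HFD511 took the corresponding place: Insig1 was at 52.4 FPKM in it and at 34.9, 25.1 and 22.0 FPKM in the other HFD mice, against 34.4, 39.4, 52.6 and 51.3 FPKM in CD, and without it 14 members were called in place of 0. In liver too, HFD217 had the lowest enzyme mean of its group and HFD511 the highest. The number of all genes called in islets without HFD217 or HFD511 is not given here. The 16 and 14 calls therefore cannot be set against a share of all genes. Across all 48 mice, the enzyme means of the 2 tissues, with group means subtracted, had a Pearson r of 0.27 and a Spearman rho of 0.15, a description only.

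Dhcr7, the reductase of the last step, had the lowest adjusted p of the members over the 6 weeks in islets. At week 12 it was at 6.39, 7.91, 7.63 and 8.06 FPKM in CD and 10.1, 9.61, 10.3 and 10.97 FPKM in HFD, without overlap (0.41 ± 0.11, adjusted p = 0.0284, limma). It was the 1 member of 28 called at that week, and higher, where 2.18% of all genes were, and the call was lost without CD307, HFD313, HFD316 or HFD318. Over the 6 weeks Dhcr7 was higher by 0.29 ± 0.05 (adjusted p = 2.42e-06, limma), with a positive difference at every week but week 20. Mvd (0.22), Ebp (0.13), Insig2 (0.13) and Abcg1 (0.09) were also higher over the 6 weeks, which makes 5 of 28 members where 16.6% of all genes were called higher. Lbr (-0.15) and Soat1 (-0.08) were lower, where 22% were. Abcg1 kept this call in 20 of 48 fits that left out 1 mouse, and lost it with a pseudocount of 0.1 or no filter. The acinar sum also differed between diets, and its direction changed between weeks. Its median in islets at week 12 was 88384 FPKM in CD and 31618 FPKM in HFD, with all 13 genes lower in HFD. At week 20 it was 14534 and 23140 FPKM, with all 13 higher. All 13 were also lower in HFD at weeks 4 and 16, as were 11 of 13 at week 24, while 10 of 13 were higher at week 8. When insulin was taken out of the islet totals, 16 members were called at week 12, all higher, as 3111 of all 11286 genes were, whose median difference moved from 0.01 to 0.19. Over the 6 weeks 15 members were then higher, as 5275 of all 12378 genes were, and Lbr and Soat1 were not called. Under median ratio scaling 6 members were called at week 12, all higher, as 504 of all 11286 genes were. Over the 6 weeks 10 of 28 were then higher, as 3552 of all 12378 genes were, and 1, Lbr, was lower. The sum of 8 alpha and delta cell genes was lower in HFD islets without overlap at each of the 6 weeks. At week 8 it ran from 14952 to 16996 FPKM (CD) and from 8696 to 12925 FPKM (HFD), and at week 24 from 9558 to 16144 FPKM (CD) and from 1549 to 2996 FPKM (HFD). The part of acinar, alpha and delta cell RNA in the islet differences was not tested.

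Abcg1 was the member whose diet effect was called as different between weeks in islets. At week 8 it was at 12.7, 12.5, 12.1 and 11.3 FPKM in CD and 7.92, 7.59, 7.60 and 9.96 FPKM in HFD, without overlap (-0.51 ± 0.09, adjusted p = 0.0106, limma), the 1 member of 27 called at that week, where 4.67% of all genes were called lower. By week 12 the order had turned, with 11.7, 13.5, 14.2 and 12.6 FPKM in CD and 14.3, 16.5, 16.0 and 16.3 FPKM in HFD (0.27, not called). At week 24 it was at 13.1, 11.1, 10.4 and 11.1 FPKM in CD and 13.7, 13.7, 15.6 and 15.3 FPKM in HFD (0.33 ± 0.09, adjusted p = 0.0286, limma), again the 1 member of 27 called, and higher, where 6.57% of all genes were. The week 8 call held whichever mouse was left out, and that of week 24 was lost without CD605, CD606, CD608, HFD616 or HFD617. The effect differed between weeks (F test, adjusted p = 1.52e-05, limma), for 1 of 28 members and for 4.25% of all genes, and did so for Abcg1 whichever of the 48 mice was left out. The 12 macrophage genes summed to between 15.5 and 24.99 FPKM in HFD and 23.5 and 47.6 FPKM in CD islets at week 8, with 11 of 12 lower in HFD. At week 24 the sums were 21.6 to 35.5 FPKM in HFD and 24.3 to 39.7 FPKM in CD, with 7 of 12 higher in HFD. Clec4f, Marco, Cd5l, Vsig4, Itgam, Trem2 and Gpnmb of this list were under 1 FPKM in most islet libraries, and its part in the course of Abcg1 was not tested. The other pumps Abcg5 and Abcg8, and Soat2, were under 1 FPKM in islets, except for Abcg5 in 1 library, and were not tested for diet. Of the members, 15 of 28 (53.6%) differed between CD weeks in islets, where 77.5% of all genes did.

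**Figure D5:**
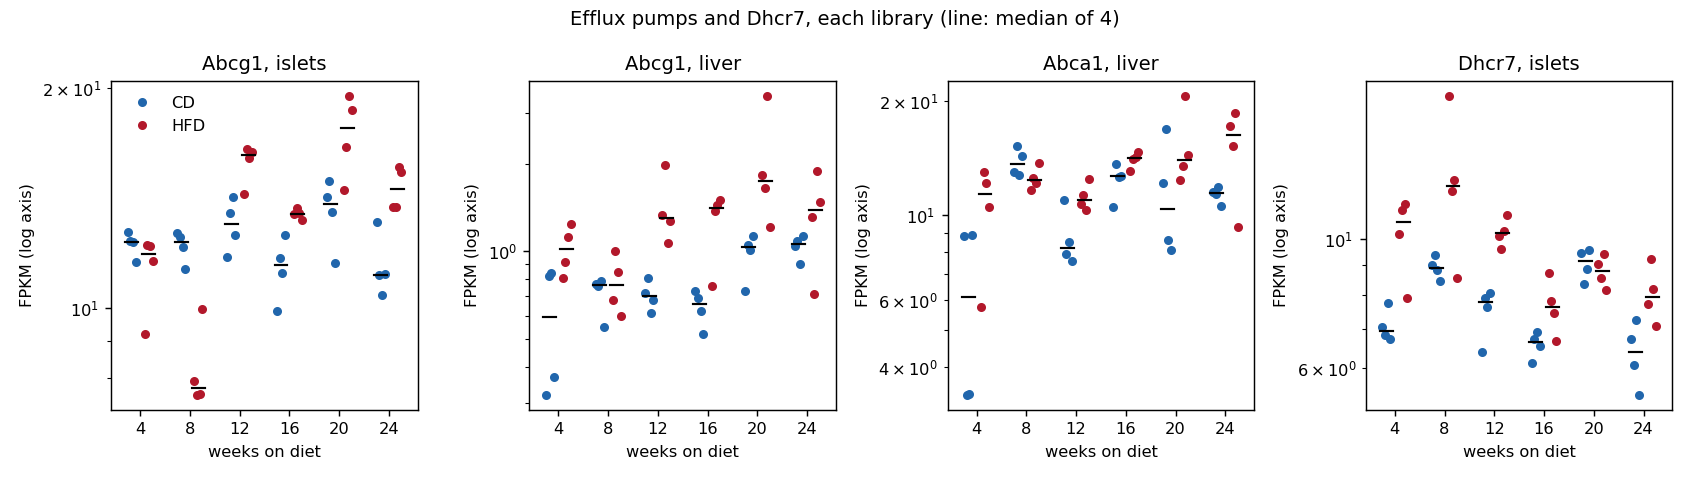
FPKM of Abcg1 in islets and liver, Abca1 in liver and Dhcr7 in islets by week on log axes; each point is 1 library, CD in blue and HFD in red, and lines are medians of 4. Abcg1 in islets is below CD at week 8 and above it from week 12, and Dhcr7 medians are higher in HFD at all weeks but week 20.

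The diet effect itself differed between the tissues for part of the pathway. The mean effect over 6 weeks was lower in liver than in islets for 9 of 27 members tested in both tissues, where 6.8% of all genes were called lower, and higher for 2, where 34% were. The 9 were Tm7sf2 (-1.48), Sqle (-1.03 ± 0.27, adjusted p = 0.00161, limma), Idi1 (-0.73), Cyp51 (-0.69), Msmo1 (-0.59), Nsdhl (-0.48), Pmvk (-0.40), Ebp (-0.18) and Scap (-0.17), and the 2 were Abca1 (0.39) and Abcg1 (0.26). In islets Tm7sf2 was listed at 0 in 18 of 24 CD and 16 of 24 HFD libraries and passed the filter only through HFD (at least 1 FPKM in 3 CD and 8 HFD libraries), so its value here is a description and no support for a difference between tissues. Leaving out 1 mouse at a time kept the call of Nsdhl in 26 and of Idi1 in 45 of 48 fits and the rest in all. Under median ratio scaling 15 members were lower and 1, Abcg1, was higher, as Abca1 lost its call. Of all 9936 genes, 4028 were then called, 1478 of them higher, so the share called lower also rose among all genes. The median difference of the 27 was -0.20 against 0.09 for all genes.

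Of 34 further genes of cholesterol handling that are not among the 31, 31 were tested in liver at each week. Within weeks, Nceh1, a cholesteryl ester hydrolase, was higher at week 8 (1.03), the lysosomal lipase gene Lipa (0.60) and the phospholipid transfer protein gene Pltp (1.04) were higher at week 12, and the retinol dehydrogenase gene Rdh11 (-1.28) and the bile acid enzyme gene Cyp27a1 (-0.51) were lower at week 20. These calls were 1, 2 and 2 of 31 genes at weeks 8, 12 and 20. Of all genes, 752 of 10034, 1059 of 9955 and 252 of 10184 were called at these weeks. Rdh11 was also the gene of this list closest to the enzyme mean, with r = 0.89. Over the 6 weeks 11 of the 31 were higher in HFD liver, a share like the 35.8% of all genes, among them Srebf1 (0.65), Nceh1 (0.47), Apoe (0.30) and Erlin1 (0.29), and 4 were lower, namely Cyp7b1 (-0.57), Rdh11 (-0.41), Cyp27a1 (-0.24) and Lcat (-0.16). In islets 9 of 31 were higher, where 16.6% of all genes were, among them the liver X receptor gene Nr1h3 (0.25) and the HDL receptor gene Scarb1 (0.24), and 3 were lower, where 22% were, namely Lrp1 (-0.29), Tmem97 (-0.27) and Pltp (-0.19). Gramd1b, which moves sterol from the plasma membrane inward, was higher in islets at weeks 16 (0.34) and 24 (0.56).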

How the data were processed

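RNA of islets, isolated by collagenase digestion and picked by hand, and of liver was sequenced from poly(A) libraries on a BGISEQ-500. The FPKM values were deposited by the authors for each library, to 2 decimals, with no read counts. The submitters' processing notes name HISAT2 2.0.4, Bowtie2 2.2.5, RSEM 1.1.12, DESeq2 and the build GRCm38.p5, without saying which step each served. The strand setting of the counting is not given in the sources used here. Columns holding the authors' own group means, log2 ratios, p-values and q-values were not used.

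Values were analysed as log2(FPKM + 1) with limma 3.58.1 in R 4.3.3 (trended and robust variances), separately within each week and over all 48 libraries of a tissue, with Benjamini-Hochberg adjustment over all genes tested. Within a week a gene needed 1 FPKM in at least 4 of 8 libraries, and in fits over several weeks in at least 4 libraries, which was asked of each tissue where effects were compared between tissues. When 1 mouse was left out of a week, at least 3 of 7 were asked. Both tissues came from the same mice, so a fit with the mouse as a block was an alternative where tissues were compared. The correlation of a mouse's deviations in its 2 tissues, across genes, had a median of 0.16 (-0.08 to 0.30 over 48 mice). The labels number each mouse once, so HFD and CD mice are not paired. Other alternatives were a pseudocount of 0.1, no filter, a log2 difference of at least 1, median ratio scaling, no trend or robust variances, all 12 groups of a tissue in 1 fit, Ins1 and Ins2 left out of the islet totals, and each mouse left out in turn. The statistics were checked on simulated data. Each group has 4 mice, and read depth is unknown here.

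The 31 genes, the 34 further genes of cholesterol handling and the marker lists were chosen with earlier results of these data known. All 31 genes were described, and outside the lists up to 10 genes most correlated with the enzyme mean in liver, among those with at least 1 FPKM in at least 24 liver libraries. A few genes under this rule are not reported here.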

Additional observations from a re-analysis of the deposited data

Results flagged for a closer look

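In 5 of 60 groups of 4 mice that were checked, 1 mouse lay far from the other 3 by Dixon's ratio at its 95% level, the gap to the nearest mouse over the whole range, and chance gives about 1 in 20. In liver at week 20, Pmvk was at 7.77 FPKM in HFD516 and at 11 to 11.51 FPKM in the other HFD mice (ratio 0.883). In the same week Mvd was at 8.68 FPKM in CD507 and at 16.98 to 19.37 FPKM in the other CD mice (ratio 0.832). At week 24 Nsdhl was at 7.79 FPKM in liver of HFD614 and at 4.09 to 4.37 FPKM in the others (ratio 0.902), and the enzyme mean of the same liver was 4.26 against 3.33 to 3.43 (ratio 0.895). In islets at week 8, Abcg1 was at 9.96 FPKM in HFD217 and at 7.59 to 7.92 FPKM in the other HFD mice (ratio 0.845).

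The diet effect differed between weeks for Tm7sf2 in liver (adjusted p = 0.0285, limma) and for Abcg1 in islets (adjusted p = 1.52e-05, limma). The mean effect differed between the tissues, as liver minus islets on the log2 scale, for Tm7sf2 (-1.48), Sqle (-1.03), Idi1 (-0.73), Cyp51 (-0.69), Msmo1 (-0.59), Nsdhl (-0.48), Pmvk (-0.40), Ebp (-0.18), Scap (-0.17), Abca1 (0.39) and Abcg1 (0.26). Tm7sf2 passed the filter in islets only through HFD libraries, so its value is a description. The causes of these differences were not tested.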

How the results depend on the processing

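The counts below are of members called by limma. Asking for a log2 difference of at least 1 left 2 of 4 in liver at week 12, 1 of 10 over the 6 weeks in liver, 0 of 7 over the 6 weeks in islets, 0 of 1 in islets at weeks 8, 12 and 24, and 2 of 11 between the tissues. With no filter, which tests more genes, liver gave 2, 2, 5 and 1 at weeks 12, 16, 20 and 24. Median ratio scaling gave 2 in liver at week 16 (588 of all 10113 genes) and 14 at week 20 (289 of 10184). In islets it gave 6, 1 and 1 at weeks 12, 16 and 20 (849 of 11286, 1376 of 11691 and 687 of 11704). Over the 6 weeks in islets it gave 11 (5968 of 12378). For an effect that differed between weeks it gave 3 in either tissue (274 of 10879 in liver, 412 of 12378 in islets). It turned the split of all genes called over the 6 weeks in liver from 3892 higher of 4630 to 1943 of 4275, and their median difference from 0.08 to -0.02. All 12 groups in 1 fit gave 2 and 16 in liver at weeks 16 and 20 (1018 and 1004 of all 10879 genes). In islets this fit gave 10, 3 and 4 at weeks 8, 12 and 20 (949, 1219 and 1201 of all 12378 genes). Without Ins1 and Ins2 in the totals, islets gave 16 at week 12 (3336 of all 11286 genes), 4 at week 16 (3701 of 11691), 15 over the 6 weeks (6665 of 12378) and 7 with an effect that differed between weeks (1998 of 12378). That last count was 2 in islets (529 of 12378) and 2 in liver (162 of 10879) without trend and robust variances. It was 2 in liver with a pseudocount of 0.1 (174 of 10879). The cause of these shifts was not tested. With the replicate block, the mouse, which pairs the tissues, 13 members differed in diet effect between tissues in place of 11, and 31 in level, with no call lost. Of all genes, 4152 of 9936 differed in effect and 12701 of 13346 in level in that fit.

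Leaving out 1 mouse at a time gave, in liver, 0 at weeks 4 and 8 and 0 to 14, 0 to 3, 2 to 17 and 0 to 4 at weeks 12, 16, 20 and 24. It gave 8 to 14 over the 6 weeks, 0 to 8 with an effect that differed between weeks and 18 to 22 that differed between CD weeks. In islets it gave 0 to 1, 1 to 16, 0 to 2, 0 to 1, 0 to 14 and 0 to 1 from week 4 to week 24, 6 to 11 over the 6 weeks, 1 to 12 with an effect that differed between weeks and 14 to 19 that differed between CD weeks. Between the tissues it gave 9 to 16 for the effect and 31 for the level. The share of all genes called in these fits is not given here. Reversed values were those of Scap over the 6 weeks in islets, 0.0749 without insulin against -0.01, and, for liver minus islets in CD, Lss (0.0163) and Mylip (0.28) under median ratio scaling and Msmo1 (-0.0183), Pmvk (-0.0334) and Scap (-0.0032) without insulin. Among single genes over all alternatives, 5081 values kept their direction and side of the threshold, 347 passed it newly, 244 lost their call and 6 were reversed. Depth is unknown, and genes near 1 FPKM, such as Abcg1 and Soat1 in liver, rest on few reads.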
